A study of Mus musculus with 3 samples.

Results

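Simple epithelial keratins are the intermediate filament proteins of single-layered and glandular epithelia. The 5 genes described here are Krt7, Krt8, Krt18, Krt19 and Krt23, taken by their symbols from the 33696 features of the count files. They were measured by single-cell RNA sequencing in 3 libraries of mouse laryngeal cells, with the library as the replicate. Every library came from Lrig1CreERT2/+; ROSA26CAG-LSL-tdTomato/+ mice, whose cells switch on the red reporter tdTomato after tamoxifen if the Lrig1 promoter drives the Cre, and pooled 10 larynges of 5 males and 5 females collected 24 h after recombination and sorted for tdTomato. All 3 libraries therefore belong to one condition, and the cells are those that had expressed Lrig1, not a census of the larynx. The feature list holds neither tdTomato nor Cre, and the reporter itself was therefore not measured.

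Keratin filaments are built from pairs of a type II and a type I protein, so that neither type forms a filament alone. Krt8 (type II) and Krt18 (type I) are the classic pair of simple epithelia. Krt7 is a second type II keratin of ducts and airways, Krt19 is a short type I keratin of ducts and luminal cells, and Krt23 is a less studied type I keratin. Stratified epithelia rely on other pairs, Krt5 with Krt14 in the basal layer and Krt4 with Krt13 above it in the mucosa. The larynx holds both kinds of lining, a stratified squamous epithelium on the vocal folds and a ciliated, mucus-secreting one around them.

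In GRCm39, the type II genes Krt7 (ENSMUSG00000023039, chromosome 15, 101308924 to 101328194, forward strand, 9 exons) and Krt8 (ENSMUSG00000049382, chromosome 15, 101905133 to 101912917, reverse strand, 9 exons) lie on either side of Krt5. Krt18 (ENSMUSG00000023043, chromosome 15, 101936615 to 101940462, forward strand, 7 exons) is a type I gene within the type II cluster, 23.7 kb from Krt8 and transcribed away from it. The other type I genes, Krt19 (ENSMUSG00000020911, 100031636 to 100039491, 6 exons) and Krt23 (ENSMUSG00000006777, 99366873 to 99383963, 8 exons), lie on the reverse strand of chromosome 11. Exons were counted in the canonical transcript of each gene. The antisense RNA Gm36026 overlaps Krt8, Gm671 overlaps Krt7 and Gm73150 overlaps Krt19.

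Because Krt8 and Krt18 are the pair whose balance is followed across cell classes, their start regions are shown. Each runs from 250 bases before to 50 bases after the annotated start, 5′ to 3′ on the gene's strand, from RefSeq on GRCm38.p6 (chr15:102004293-102004592 for Krt8, reverse strand, and chr15:102027966-102028265 for Krt18, forward strand). Capitals mark matches to TATAA on either strand, of which the 2 in Krt8 overlap. Relative to the annotated start, the matches begin at -2 and -1 in Krt8 and at -19 in Krt18. Whether they act in starting transcription was not tested.
Krt8: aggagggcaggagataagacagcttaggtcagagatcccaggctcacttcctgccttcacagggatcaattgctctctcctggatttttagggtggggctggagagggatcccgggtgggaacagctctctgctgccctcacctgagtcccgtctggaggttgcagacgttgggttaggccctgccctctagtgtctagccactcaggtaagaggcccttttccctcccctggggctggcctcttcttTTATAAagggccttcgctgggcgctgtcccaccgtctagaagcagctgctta
Krt18: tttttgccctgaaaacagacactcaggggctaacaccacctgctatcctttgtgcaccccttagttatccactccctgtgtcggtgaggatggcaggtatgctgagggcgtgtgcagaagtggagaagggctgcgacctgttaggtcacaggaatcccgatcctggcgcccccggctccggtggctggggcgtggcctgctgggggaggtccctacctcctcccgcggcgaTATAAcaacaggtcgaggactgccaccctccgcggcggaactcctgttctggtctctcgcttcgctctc
Of the 5 genes, 4 had an entry in that table, Krt19 being the exception. TATAA was found in 24.9% of its 32851 start regions, and in none of those of Krt7 and Krt23. The letters GGGCGG, the core of a GC box, occurred 4 times in the Krt7 region and in 35.7% of all regions, but not in those of Krt8, Krt18 or Krt23.

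The 3 libraries held 18068, 10816 and 31646 barcodes with 211727921, 147898790 and 413632222 counted molecules (unique molecular identifiers, UMIs). After limits on quality and removal of barcodes that resembled simulated doublets, 13222, 7201 and 24119 cells were left, with a median of 10536, 14033 and 10389 UMIs. Cells were put into classes by gates, each passed with at least 2 UMIs on each of 3 or more marker genes, none of which is one of the 5 keratins or Krt5. Basal cells passed the basal gate (Trp63, Krt14, Krt15 and others) and no other, and numbered 3058, 2920 and 8635. The squamous gate (Krt4, Krt13, Sprr3 and others) gave 251, 238 and 856 cells, the secretory gate (Scgb1a1, Scgb3a2, Cyp2f2 and others) 2973, 1361 and 7697, and the ciliated gate (Foxj1, Hydin and others) 366, 230 and 465. Gland cells (Ltf, Dcpp2 and others) numbered 15, 9 and 44 and neuroendocrine cells (Chga, Calca and others) 38, 20 and 1, so that these rest on 2 libraries each, since a sum needed 10 cells. The single neuroendocrine cell of library 3 had no Chga and no Scg2 UMI. Levels are the UMIs of a gene per 1000000 UMIs of the summed cells (CPM), and are compared between classes and not between genes.

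Each keratin had its own order across the 6 classes with sums from at least 2 libraries. Tuft cells, a chemosensory type, were left out of it with 7, 0 and 5 cells. The 7 tuft cells of library 1 had 1383 CPM of Krt8 and 2111 CPM of Krt18, more than any ranked class, and the 5 of library 3 had 52.4 and 112 CPM. Among the ranked classes, neuroendocrine cells had the highest CPM of Krt7, Krt8 and Krt18, although the edgeR estimate for Krt18 was higher in gland cells. Cells that release hormones and peptides are known from the airway lining and, as calcitonin cells, from the thyroid. Calca, the gene of calcitonin, was at 12186 and 5393 CPM in the gated cells and the thyroid gene Tg was found in 0 of 38 and 1 of 20 of them, while the libraries also held 32, 20 and 9 thyroid follicular cells, so that the tissue they came from cannot be told apart here. Secretory and squamous cells stood highest for Krt19, and gland and squamous cells for Krt23. Basal cells stood lowest for Krt8, and basal and squamous cells for Krt18.

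For Krt7, the level in neuroendocrine cells was 1149 CPM in library 1 and 1058 CPM in library 2. Squamous cells followed with 372, 315 and 412 CPM, then secretory cells with 224, 217 and 316 CPM, ciliated cells with 206, 209 and 341 CPM and basal cells with 197, 175 and 240 CPM. From squamous to basal cells, each class overlapped with the next in this order. Gland cells had the lowest mean but did not agree between libraries, with 17.4 CPM (4 UMIs) in library 1 and 91.6 CPM in library 3. The 9 gland cells of library 2, too few for a sum, had 223 CPM.

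For Krt8, no neighbouring classes overlapped in the order of levels, as far as sums of at least 10 cells go. Neuroendocrine cells had 589 and 757 CPM, ciliated cells 377, 428 and 513 CPM, squamous cells 236, 210 and 277 CPM, gland cells 187 and 205 CPM, secretory cells 144, 135 and 163 CPM, and basal cells 93.3, 85.3 and 110 CPM. The 9 gland cells of library 2 had 283 CPM, above all 3 squamous values, so that the step from squamous to gland cells holds in CPM only without them. In the edgeR test given below, gland against squamous cells had the opposite sign and did not pass (0.24 ± 0.18, adjusted p = 0.436). Neuroendocrine against ciliated cells did not pass either (0.16 ± 0.16, adjusted p = 0.449). With the library as a block the adjusted p-values of that test were 0.509 and 0.0876.

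Its partner Krt18 followed another order. In CPM, neuroendocrine cells again stood first, with 819 and 854 CPM, and gland cells came second with 680 and 755 CPM. The edgeR test given below had the opposite sign, with Krt18 lower in neuroendocrine than in gland cells (-0.64 ± 0.25, adjusted p = 0.088). With the library as a block it was -0.87 ± 0.23 (adjusted p = 0.0123). The order of this pair was thus not the same in CPM and in that test. Secretory cells (272, 340.5 and 221 CPM) and ciliated cells (261, 260.5 and 297 CPM) overlapped. Squamous cells (155, 144 and 123 CPM) and basal cells (127, 150 and 94.7 CPM) overlapped as well. Thus squamous cells, well above basal cells for Krt8, overlapped with them for Krt18.

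For Krt19, secretory cells had 585, 628 and 668 CPM, squamous cells 577, 579 and 613 CPM, neuroendocrine cells 478 and 583 CPM and ciliated cells 402, 458 and 483 CPM, each overlapping with the next over the libraries. Within each library, secretory cells lay above squamous cells, and neuroendocrine above ciliated cells where both had a sum. By edgeR neither passed (0.04 ± 0.12, adjusted p = 0.848, and -0.21 ± 0.14, adjusted p = 0.259), the second with the opposite sign. Basal cells lay below all of these with 330, 290 and 323 CPM. Gland cells were lowest, at 65.4 and 94.95 CPM.

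For Krt23, gland cells (100.3 and 125 CPM) and squamous cells (114, 123 and 82.6 CPM) overlapped, ahead of secretory cells with 47.7, 43.0 and 40.8 CPM and basal cells with 23.0, 22.9 and 19.1 CPM. Ciliated cells had 0.981, 4.22 and 3.26 CPM. Neuroendocrine cells held 0 UMIs in library 1 and 1 UMI in library 2. Free RNA can add UMIs to any droplet, and fibroblasts, which should lack these keratins, had 3.65 to 11.1 CPM of Krt7, 4.32 to 5.47 CPM of Krt8, 5.63 to 5.93 CPM of Krt18, 10.1 to 20.4 CPM of Krt19 and 0.855 to 1.93 CPM of Krt23, from a source that was not tested. The Krt23 levels of ciliated and neuroendocrine cells were thus close to that background, and all other levels given above were higher than it.

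**Figure D1:**
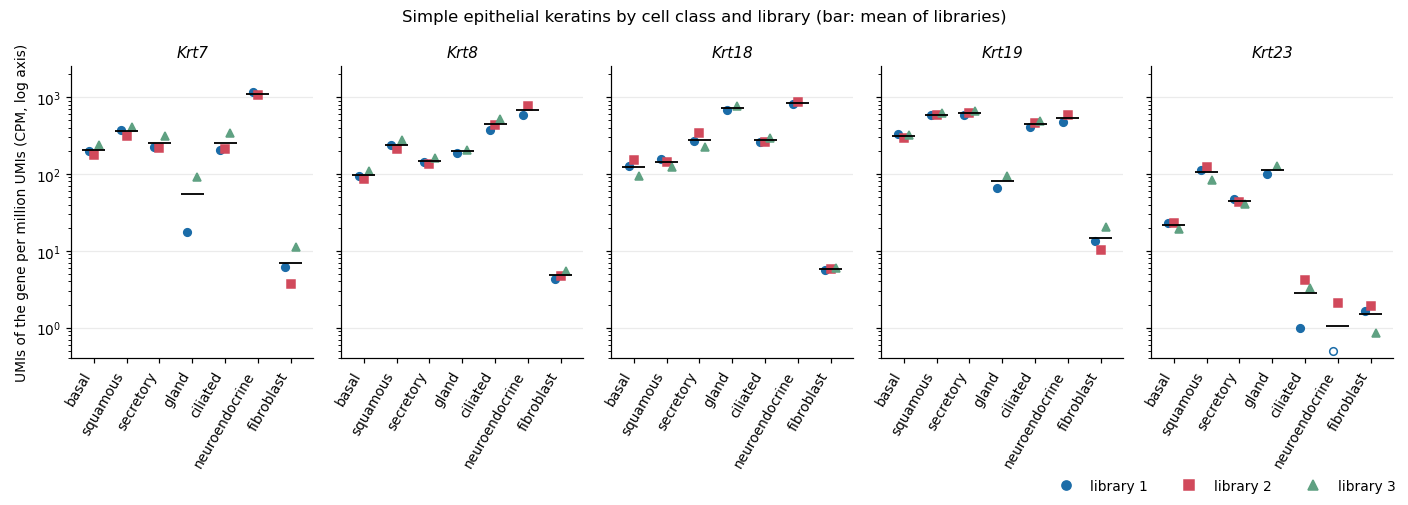
Levels of the 5 keratins (CPM, log axis) in 6 epithelial classes and in fibroblasts, 1 panel per gene. Each point is the sum of the cells of a class in 1 library, the bar is the mean, and an open marker at the bottom is a level of 0 (Krt23 in neuroendocrine cells of library 1). Krt7 is highest in neuroendocrine cells, Krt8 is lowest in basal and highest in ciliated and neuroendocrine cells, and Krt23 falls to the fibroblast level in ciliated and neuroendocrine cells.

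Summed counts of the classes were compared by the two-sided quasi-likelihood test of edgeR. The p-values were adjusted over 15999 genes by the Benjamini-Hochberg method, and genes under 0.05 were said to pass. Log2 fold changes are given with their standard error. Against basal cells, 4 of the 5 keratins rose in squamous cells, where 18.2% of all genes tested passed. Krt23 rose by 2.40 ± 0.20 (adjusted p = 2.26e-06), Krt8 by 1.43 ± 0.14 (adjusted p = 1.02e-05), Krt19 by 1.01 ± 0.12 (adjusted p = 5.99e-05) and Krt7 by 0.95 ± 0.25 (adjusted p = 0.0166), the last of which missed the threshold without library 1 (adjusted p = 0.18) and without library 2 (adjusted p = 0.132). Krt18 did not pass, at 0.28 ± 0.19 (adjusted p = 0.356), and with markers counted from 1 UMI its sign turned, to -0.035.

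In secretory cells, 4 of 5 rose as well, against 7.24% of all genes. Krt18 rose by 1.22 ± 0.20 (adjusted p = 0.00105), Krt23 by 1.07 ± 0.19 (adjusted p = 0.00279), Krt19 by 1.05 ± 0.12 (adjusted p = 9.04e-05) and Krt8 by 0.66 ± 0.14 (adjusted p = 0.00786). Krt7 did not pass, at 0.36 ± 0.25 (adjusted p = 0.567), but did with the library as a block (0.35 ± 0.11, adjusted p = 0.0339, 22.2% of all genes past the threshold in that fit). Leaving out library 1 left 1 of the 5 past the threshold, Krt19. Compared directly, secretory cells had less Krt8 (-0.76 ± 0.14, adjusted p = 0.00081) and Krt23 (-1.32 ± 0.20, adjusted p = 0.000146) but more Krt18 (0.94 ± 0.20, adjusted p = 0.00209) than squamous cells, with 30% of all genes past the threshold. Krt7 did not pass (-0.59 ± 0.25, adjusted p = 0.0882) but was lower in secretory cells with the block (-0.60 ± 0.11, adjusted p = 0.000452, 49.6% of all genes).

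In gland cells, Krt18 rose by 3.16 ± 0.23 (adjusted p = 1.45e-07), Krt23 by 3.05 ± 0.30 (adjusted p = 3.78e-06) and Krt8 by 1.67 ± 0.18 (adjusted p = 1.16e-05), while Krt19 fell by 1.27 ± 0.18 (adjusted p = 0.000127). Of all genes, 15.6% passed. Krt7, whose libraries differed, missed the threshold at -1.0 ± 0.38 (adjusted p = 0.0977) and passed it with the library block (-1.10 ± 0.28, adjusted p = 0.0112, 16.3% of all genes). Lactoferrin (Ltf), a secreted protein and gate marker, was at 37249 and 53896 CPM in these cells. With total counts in place of TMM, Krt18 was higher by 2.54 ± 0.20 and Krt19 lower by -1.90 ± 0.18, and the Krt19 call was lost when cells were thinned to 5000 UMIs before gating (-0.32 ± 0.31, adjusted p = 0.741).

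In ciliated cells, which bear motile cilia, Krt8 rose by 2.41 ± 0.15 (adjusted p = 9.41e-10), Krt18 by 1.35 ± 0.20 (adjusted p = 2.12e-05) and Krt19 by 0.72 ± 0.12 (adjusted p = 9.73e-05), and Krt23 fell by 2.83 ± 0.33 (adjusted p = 1.79e-06). Krt7 missed the threshold (0.53 ± 0.25, adjusted p = 0.079) and passed it with the block (0.50 ± 0.12, adjusted p = 0.00126, 73.2% of all genes). Since 66.0% of all genes passed in this comparison, 4 of 5 keratins is close to the background. Against gland cells, ciliated cells had more Krt8 (0.74 ± 0.18, adjusted p = 0.00559) and less Krt18 (-1.81 ± 0.22, adjusted p = 1.35e-05), with 31.6% of all genes past the threshold.

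In neuroendocrine cells, all 5 keratins passed, against 38.9% of all genes. Krt8 rose by 2.57 ± 0.16 (adjusted p = 8.04e-09), Krt18 by 2.51 ± 0.22 (adjusted p = 2.58e-07), Krt7 by 2.21 ± 0.28 (adjusted p = 1.36e-05) and Krt19 by 0.52 ± 0.14 (adjusted p = 0.00865), and Krt23 fell (adjusted p = 0.000518). The Krt19 call was lost without library 1 (adjusted p = 0.0854) or library 2 (adjusted p = 0.397), without removal of doublets (adjusted p = 0.0646) and with cells of several gates assigned to 1 of them (adjusted p = 0.106). With markers counted from 1 UMI, 3 of 5 passed, against 18.0% of all genes, and Krt19 (adjusted p = 0.8) and Krt23 (adjusted p = 0.0538) did not. Krt23 did not pass either with cells thinned to 5000 UMIs before gating (adjusted p = 0.139). With 1 Krt23 UMI in 1140855, the Krt23 level was 0.0405 times the mean basal level, with an exact Poisson interval of 0.00102 to 0.225 that covers counting error only. In neuroendocrine cells the basal keratin Krt5 was at 34.4 and 6.36 CPM, against 1106, 897 and 1874 CPM in basal cells.

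The basal gate gave way to any other epithelial gate, and most squamous and secretory cells had passed it too, namely 86.1, 85.7 and 87.7% of the squamous and 69.8, 77.5 and 83.5% of the secretory cells. They were split by that gate on all their UMIs, and levels were then taken with each cell thinned to 5000 UMIs. Before thinning, squamous cells without the basal gate had a median of 14893, 23377 and 16955 UMIs. Those with it had 25266.5, 27996 and 25139, a difference whose part in the split was not tested. In the 33, 30 and 95 squamous cells that did not pass the basal gate, Krt19 was at 1558, 1460 and 1779 CPM, against 450, 422 and 500 CPM in squamous cells that did and 299 ± 32.7 CPM (SD, n = 3) in basal cells. Krt8 was at 424, 500 and 684 CPM against 170, 175 and 218 CPM. Krt18 was at 394, 413 and 446 CPM against 94.4, 100 and 92.8 CPM, so that it exceeded the basal level of 128 ± 27.9 CPM in the first group and not in the second. Krt23 was at 661, 713 and 257 CPM against 80.6, 34.3 and 62.6 CPM, and Krt7 at 600, 833 and 829 CPM against 340, 244 and 358 CPM. For none of the 5 genes did the squamous groups overlap. The share of all genes without overlap in this split was not computed.

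Among secretory cells, those without the basal gate (584, 233 and 790 cells) had Krt18 at 465, 673 and 429 CPM against 201, 259 and 177 CPM with it, and Krt23 at 110, 98.7 and 119 CPM against 23.1, 20.8 and 27.9 CPM. Krt8 (193, 203 and 246 CPM against 114, 114 and 137 CPM) and Krt19 (633, 668 and 823 CPM against 514, 557 and 572 CPM) were higher without the gate too. Krt7 was the exception, with 173, 151 and 296 CPM without and 227, 228 and 300 CPM with it. Passing a gate rests on depth, and before thinning the cells without the basal gate had a median of 8408, 12146 and 6333 UMIs against 16886, 20561 and 11956, a difference whose part in the split was not tested.

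With the cells of both gates left out of the squamous and secretory classes, all 5 keratins rose in squamous against basal cells, where 27.2% of all genes passed. Krt23 was higher by 4.58 ± 0.27 (adjusted p = 3.66e-09), Krt8 by 2.70 ± 0.20 (adjusted p = 2.74e-08), Krt19 by 2.56 ± 0.17 (adjusted p = 1.36e-08), Krt7 by 2.04 ± 0.29 (adjusted p = 5.56e-05) and Krt18 by 1.90 ± 0.20 (adjusted p = 2.44e-06). In secretory cells, Krt23 was then higher by 2.78 ± 0.25, Krt18 by 2.37 ± 0.20, Krt19 by 1.55 ± 0.17 and Krt8 by 1.46 ± 0.19, and Krt7 did not pass (0.23 ± 0.28, adjusted p = 0.6), against 26.4% of all genes.

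**Figure D2:**
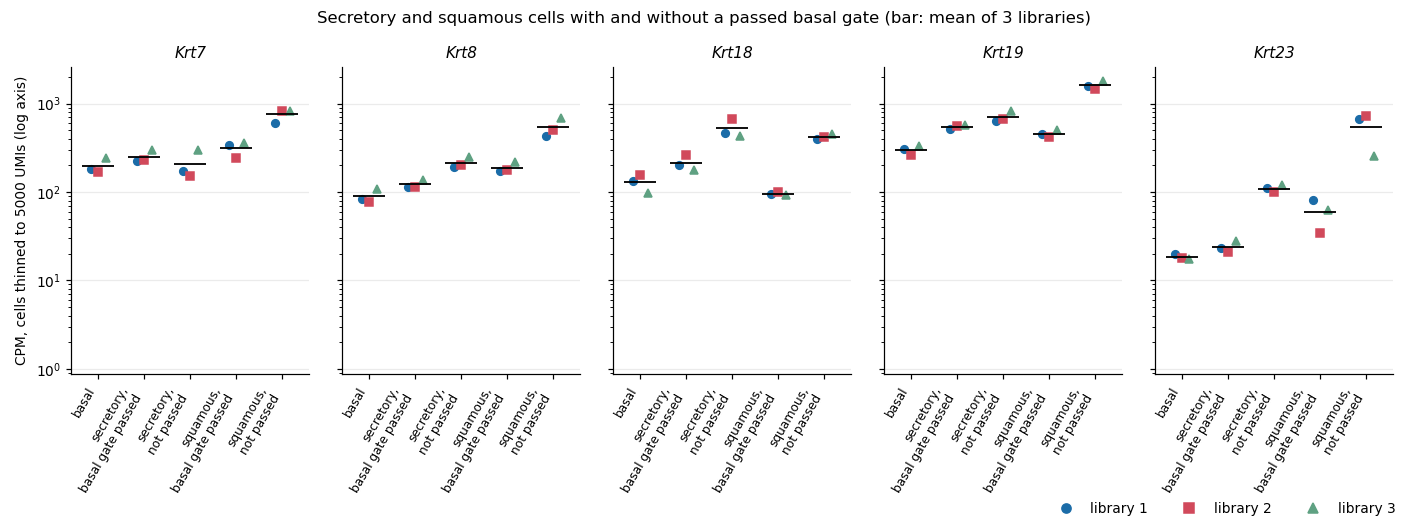
Levels of the 5 keratins (CPM of cells thinned to 5000 UMIs, log axis) in basal cells and in secretory and squamous cells that also passed the basal gate or did not. Each point is 1 library and the bar the mean of 3. Squamous cells without the basal gate lie above those with it for all 5 genes, and secretory cells without it for all but Krt7.

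The ratio of Krt8 to Krt18 UMIs within a library compares the pair across classes. Its absolute value also depends on how well each transcript is captured, so only its differences between classes are read. The ratio was 1.52, 1.45 and 2.25 in squamous cells and 1.44, 1.64 and 1.73 in ciliated cells. It was 0.733, 0.568 and 1.16 in basal cells, 0.528, 0.397 and 0.734 in secretory cells, 0.719 and 0.886 in neuroendocrine cells, and 0.276 and 0.272 in gland cells. Within each library, squamous and ciliated cells lay above basal cells and basal cells above secretory cells. Library 3 had the highest ratio in basal, squamous, secretory and ciliated cells.

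**Figure D3:**
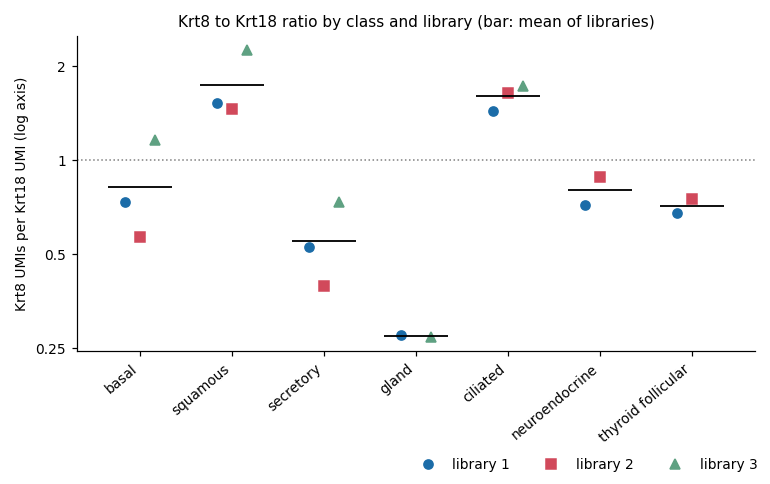
Krt8 UMIs per Krt18 UMI (log axis) in each class, with thyroid follicular cells added. Points are libraries, bars their mean, and the dotted line marks a ratio of 1 for orientation only. Squamous and ciliated cells lie above basal and secretory cells within each library, and gland cells are lowest.

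In single cells thinned to 5000 UMIs, both partners were detected in 13.5, 12.9 and 13.3% of basal cells, 23.7, 23.9 and 24.4% of squamous cells, 26.8, 28.2 and 26.7% of secretory cells, 59.8, 58.2 and 64.2% of ciliated cells and 78.8 and 100% of neuroendocrine cells. Gland cells had both in 46.2% (13 cells) in library 1 and 51.3% (39 cells) in library 3. In neuroendocrine cells the Wilson 95% intervals, which cover counting error only, were 62.2 to 89.3% and 83.2 to 100% (33 and 19 cells). Fibroblasts, at a median of 11365, 11460 and 9382.5 UMIs before thinning against 13598, 17036.5 and 13618 in basal cells, had both in 0.182, 0 and 0.2% of cells, and 0 of 355 cells has a Wilson 95% interval of 0 to 1.07%. Cells with Krt8 and no Krt18 made up 18.5, 21.4 and 29.7% of squamous cells, against 15.8, 15.7 and 21.7% of basal cells. Cells with Krt18 and no Krt8 made up 8.43, 7.26 and 4.27% of squamous cells, against 30.2, 34.6 and 25.2% of secretory cells. Of the 4 classes for which it was computed, squamous cells had the highest Spearman's rho between the 2 genes across cells, 0.447 to 0.448 in the 3 libraries, against 0.110 to 0.183 in basal, 0.0775 to 0.138 in secretory and 0.126 to 0.233 in ciliated cells. These values describe cells that share a library, and low counts pull them toward 0.

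The relation to Krt5, the type II keratin of the basal layer, was followed within basal cells thinned to 5000 UMIs. Krt18 and Krt19 stepped down as Krt5 rose, in every library. From cells with 0 to cells with 1 to 4, 5 to 19 and 20 or more Krt5 UMIs, Krt18 went from 237 to 156, 77.9 and 30.5 CPM in library 1, from 327 to 154, 78.9 and 47.1 CPM in library 2 and from 184 to 142, 85.9 and 33.6 CPM in library 3. Krt19 went from 388 to 356, 229 and 81.4 CPM, from 368 to 289, 188 and 35.3 CPM and from 600.0 to 546, 266 and 69.6 CPM. The last bin of library 2 held 17 cells, and the steps down were there without it too. Krt7 and Krt8 fell across all bins in library 3, from 356 to 153 CPM and from 193 to 51.0 CPM. Up to 19 Krt5 UMIs, Krt7 stayed within 164 to 195 CPM in library 1 and 157 to 171 CPM in library 2, and Krt8 within 80.4 to 89.3 CPM and 75.2 to 79.1 CPM. At 20 or more, where libraries 1 and 2 held 59 and 17 cells, both were lower there as well, Krt7 at 122 and 94.1 CPM and Krt8 at 50.8 and 70.6 CPM.

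Basal cells were then cut into 3 groups of equal size by Krt5 UMIs, and the Krt5-high against the Krt5-low group gave a fall of Krt18 by 1.55 ± 0.23 (edgeR, adjusted p = 0.0141) and of Krt19 by 1.26 ± 0.19 (adjusted p = 0.0149). Of 12482 genes, 573 (4.59%) passed. Krt18 was at 194, 252 and 139 CPM in the low and 62.8, 76.8 and 62.7 CPM in the high group, and Krt19 at 381, 346 and 528 CPM and 200.9, 186 and 138.5 CPM, without overlap. Krt7 (-0.40 ± 0.20, adjusted p = 0.228), Krt8 (-0.37 ± 0.21, adjusted p = 0.294) and Krt23 (0.03 ± 0.27, adjusted p = 0.955) did not pass. Both groups of a library come from 1 pool, and with the library as a block the same 2 keratins passed. So did 3709 of the 12482 genes, many more than the 573 without the block, so that passing sets a gene less apart in this fit. Krt18 was then at -1.49 ± 0.13 (adjusted p = 0.000285) and Krt19 at -1.27 ± 0.18 (adjusted p = 0.00164). In fits without the block, leaving out library 1 left neither of the 2 genes past the threshold (Krt18, -1.50, adjusted p = 0.286, and Krt19, -1.42, adjusted p = 0.247). No gene at all passed there, with 1235 at an unadjusted p under 0.05. Leaving out library 2 in such a fit gave -1.41 (adjusted p = 0.0555) and -1.41 (adjusted p = 0.0651).

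Gate markers differed between the Krt5 groups as well. Of the 7 basal gate markers, 6 were higher in the high group in all 3 libraries, and of the 7 secretory gate markers, 6 were lower. The summed secretory markers went from 9811, 7199 and 9639 CPM in the low group to 5946, 6123 and 6707 CPM in the high group. Cells of the high group had been deeper before thinning, with a median of 16819, 20426 and 16731.5 UMIs against 13535.5, 14570 and 13152. The part of either in the keratin differences was not tested. Among 15 proteins that link keratin filaments to junctions or to each other, 4 rose and 1 fell in the high group, where 4.59% of all genes passed. Of the 5 other keratins tested, Krt6a (2.81 ± 0.44, adjusted p = 0.0169) and Krt17 (1.92 ± 0.39, adjusted p = 0.0363), keratins of stressed or activated stratified epithelium, rose. They were named after their values were seen, and reads of Krt6a can be confused with those of its near copy Krt6b. Muc1, a mucin of the luminal surface, fell by 2.00 ± 0.33 (adjusted p = 0.0199) and the tight junction gene Cldn3 by 1.15 ± 0.16 (adjusted p = 0.012).

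**Figure D4:**
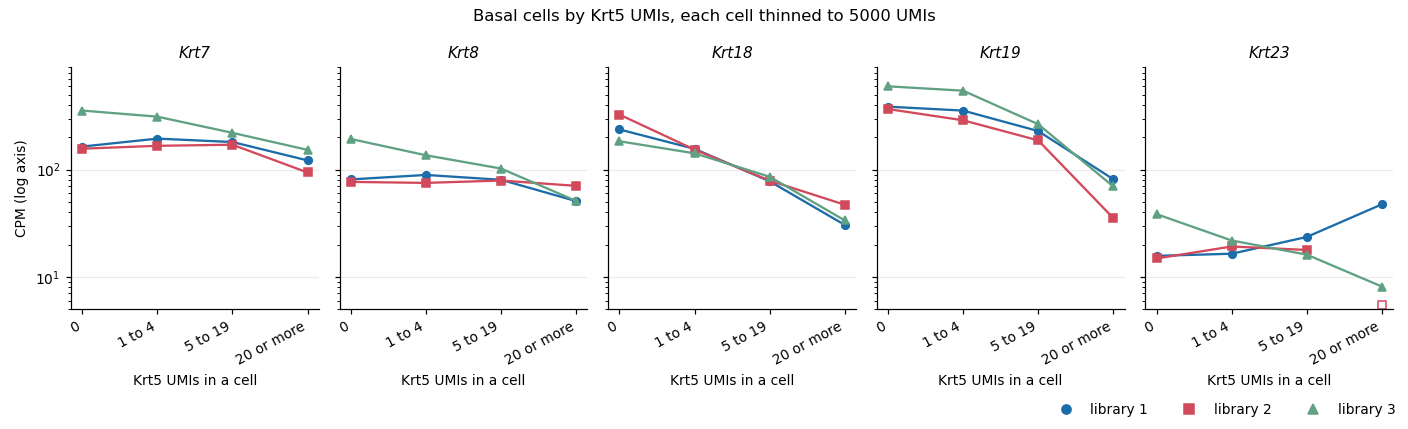
Levels of the 5 keratins (CPM, log axis) in basal cells binned by their Krt5 UMIs, with each cell thinned to 5000 UMIs and 1 line per library. The open marker at the bottom is a level of 0 (Krt23, library 2, 17 cells). Krt18 and Krt19 step down in all 3 libraries, while Krt7 and Krt8 do so across all bins in library 3 and are lowest at 20 or more UMIs in libraries 1 and 2 too.

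In squamous cells, Krt18 and Krt19 were lower in the same way at higher Krt5. Krt19 went from 1294, 1511 and 2424 CPM at 0 Krt5 UMIs to 389, 289 and 515 CPM at 5 to 19 and to 0, 47.1 and 99.5 CPM at 20 or more. Krt18 went from 329, 556 and 624 CPM to 85.1, 81.2 and 94.9 CPM and to 0, 0 and 30.4 CPM. The bin of 0 held 17 and 18 cells in libraries 1 and 2, and the bin of 20 or more held 17 cells in library 2. From 1 to 4 to 5 to 19 Krt5 UMIs, where no bin held under 63 cells, all 5 keratins were lower in the second bin in every library. The share of all genes that were lower in the same way was not computed. In secretory cells, Krt18 went from 432, 555 and 472 CPM at 0 to 154, 157 and 159.5 CPM at 5 to 19 Krt5 UMIs and Krt23 from 86.2, 65.4 and 134 CPM to 17.6, 22.4 and 26.0 CPM, whereas Krt7 went the other way over these bins, from 156, 157 and 229.5 CPM to 255, 269 and 303 CPM. At 20 or more Krt5 UMIs, Krt7 was at 138 CPM in library 1 (29 cells), below its level at 0, and at 409 CPM in library 3 (211 cells), library 2 having under 10 such cells. Fibroblasts had Krt5 UMIs as well, at 21.9, 11.2 and 57.7 CPM, the most in library 3, and their source was not tested.

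All cells came from a sort for past Lrig1 expression, and within a class those with (Lrig1+) and without (Lrig1-) a Lrig1 UMI were compared. In basal cells, none of the 5 passed by edgeR or DESeq2, 2 being at an unadjusted p under 0.05 by either, and 0 of 15956 genes passed by edgeR (0%), with 649 at an unadjusted p under 0.05 and 54 called by DESeq2. Both groups of a library come from 1 pool of mice, and with the library as a block all 5 were higher in Lrig1+ cells, against 13.0% of all genes called in either direction. Krt8 was higher by 0.53 ± 0.05 (adjusted p = 1.24e-06), Krt19 by 0.44 ± 0.07, Krt23 by 0.36 ± 0.07, Krt18 by 0.30 ± 0.04 and Krt7 by 0.17 ± 0.05. Krt8 was at 67.0, 64.5 and 89.0 CPM in Lrig1- and 108, 93.0 and 119 CPM in Lrig1+ basal cells. Lrig1+ cells were also deeper, with a median of 15358, 18374 and 15703 UMIs against 10875, 13364 and 9981.5. With each cell thinned to 5000 UMIs before the call and the library as a block, 3 of 5 passed (12.4% of all genes), Krt8 at 0.23 ± 0.05 (adjusted p = 0.00171), Krt18 at 0.17 ± 0.05 (adjusted p = 0.0334) and Krt19 at 0.16 ± 0.04 (adjusted p = 0.00491), and Krt7 was at 0.0075 and Krt23 at 0.08. Lrig1- basal cells then numbered 1860, 1780 and 4930 against 1319, 929 and 3374 before, since some cells lost their Lrig1 UMIs in thinning. The part of this mixing in the smaller differences was not tested.

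In squamous cells, none of the 5 passed by edgeR without the block, 3 being at an unadjusted p under 0.05, while 12 of 12024 genes (0.0998%) passed. DESeq2 called 2 of the 5 and 167 of all genes (1.39%). With the block, Krt18 (0.82 ± 0.13, adjusted p = 0.00338) and Krt8 (0.52 ± 0.10, adjusted p = 0.00925) were higher and Krt23 was lower (-1.23 ± 0.15, adjusted p = 0.000533) in Lrig1+ cells, against 6.78% of all genes. Krt23 was at 176, 290 and 117 CPM in Lrig1- and 86.7, 85.6 and 67.1 CPM in Lrig1+ squamous cells. At equal depth with the block, Krt23 was lower by -0.72 ± 0.15 (adjusted p = 0.00189) and Krt7 by -0.33 ± 0.09 (adjusted p = 0.0255), while Krt18 (0.42 ± 0.12, adjusted p = 0.027) and Krt8 (0.34 ± 0.10, adjusted p = 0.0386) were higher, 4 of 5 against 3.07% of all genes. In secretory cells, none of the 5 passed by edgeR with or without the block or by DESeq2, and none was at an unadjusted p under 0.05 without it. Without the block, 0 of 15603 genes passed by edgeR (0%), with 626 at an unadjusted p under 0.05 and 23 called by DESeq2. With the block, 908 of the 15603 genes passed by edgeR.

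The difference in the Lrig1 effect between classes was tested as an interaction. Without the block, none of the 5 keratins passed in any of the 3 pairs of classes. With it, the Krt23 effect was lower in squamous than in basal cells by -1.58 ± 0.21 (adjusted p = 0.00206, 0.434% of all genes past the threshold) and than in secretory cells by -1.13 ± 0.21 (adjusted p = 0.0151, 1.19% of all genes). The Krt8 effect was higher in squamous than in secretory cells by 0.51 ± 0.11 (adjusted p = 0.0325). At equal depth with the block, none of the 5 passed over 13379 genes in any pair, although 2 were at an unadjusted p under 0.05 for squamous against basal cells, 5 for squamous against secretory cells and 3 for secretory against basal cells. How many of all genes reached an unadjusted p under 0.05 in these pairs was not counted, so the counts have no background. The Krt23 differences at equal depth were -0.88 ± 0.24 (adjusted p = 0.847) and -0.61 ± 0.23 (adjusted p = 0.714), and the Krt8 difference 0.49 ± 0.13 (adjusted p = 0.417). Thinning had also moved cells that carried a Lrig1 UMI to the Lrig1- groups, and the part of this was not tested.

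**Figure D5:**
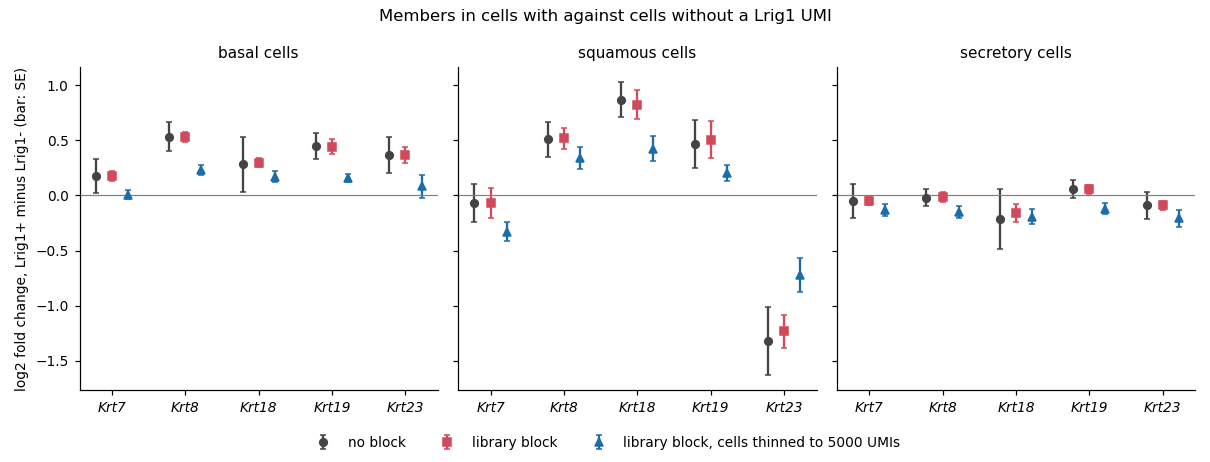
Log2 fold change of the 5 keratins between Lrig1+ and Lrig1- cells of the basal, squamous and secretory classes, with bars of 1 standard error, for the fit without a block, with the library as a block, and with the block after thinning to 5000 UMIs. The differences of basal cells are smaller after thinning, which also moves some cells from the Lrig1+ to the Lrig1- group. Krt23 is below 0 in squamous cells in all 3 fits.

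Genes around the keratins were counted from lists. Of 15 genes that link keratin filaments, 1 rose and 1 fell in secretory against basal cells (median log2 fold change -0.19, over all genes 0.01), Pkp2, a desmosomal plaque protein (0.74 ± 0.15, adjusted p = 0.00629), and Eppk1, a keratin-binding plakin (-0.77 ± 0.20, adjusted p = 0.025). Of all genes, 7.24% passed in secretory cells. In squamous cells 8 of 15 rose and 1 fell, where 18.2% of all genes passed, and in ciliated cells 4 rose and 11 fell, where 66.0% did. Of 15 epithelial transcription factors, 6 rose in secretory cells, led by Spdef (2.96 ± 0.29) and Foxa2 (2.83 ± 0.25), regulators of mucous and airway secretory cells. Of 14 junction genes, 3 rose, Muc1 (1.56 ± 0.26) and Cldn3 (1.52 ± 0.20) the most, and Cldn1 fell by 1.34 ± 0.26. Of 11 other keratins tested, 6 rose in squamous cells, against the same 18.2% of all genes.

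Over the 16 sums of class and library, the genes whose log2 level ran closest to each keratin, among 10270 genes, were Glrx2, Nsdhl and Asb13 for Krt7 (Pearson's r 0.980, 0.977 and 0.976) and Cadm4, Mien1 and Nhsl1 for Krt8 (0.981, 0.946 and 0.946). For Krt18 they were Aldoc, Hid1 and Arfgef3 (0.964, 0.963 and 0.958), for Krt19 2010007H06Rik, Pigyl and Naa38 (0.931, 0.926 and 0.919) and for Krt23 Tcim, Gstt3 and Gjb2 (0.963, 0.949 and 0.944). Among the keratins themselves, Krt7 and Krt19 ran together (0.808), Krt8 and Krt18 less so (0.555), and Krt18 and Krt8 ran against Krt5 (-0.790 and -0.765). Krt23 ran with Krt5 (0.731) and against Krt8 (-0.632), and Krt7 and Krt19 were at -0.133 and 0.184 with Krt5. The sums share libraries and classes, so these values are a description.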

How the data were processed

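Single-cell RNA sequencing was done with 10x Genomics chemistry in 3 libraries of 1 group, each a pool of 10 larynges. The submitters' processing notes name Cell Ranger 8.0.1 and mm39, and the authors deposited raw UMI counts per gene and called barcode, without normalization. Whether reads antisense to a gene were counted is not given in the sources used here. The limits on barcodes were 500 to 8000 genes, 1000 to 40000 UMIs and no more than 8% of UMIs from mitochondrial genes, which 14252, 7527 and 27614 barcodes met. Doublets were scored by the share of simulated doublets among 30 neighbours on 30 principal components and removed at 0.4% per 1000 barcodes (1030, 326 and 3495). Libraries shared 46, 165 and 96 barcode sequences.

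A cell that passed a single gate besides the basal one was put into that class when the class is epithelial. Cells that passed several gates other than the basal one, or the basal and a non-epithelial gate (440, 172 and 1063 in all), and cells of no gate (2846, 1229 and 2578) were left out. For each library and class, counts were added up and analysed with edgeR 4.0.16 under R 4.3.3 (filterByExpr, TMM, quasi-likelihood, Benjamini-Hochberg). The classes were fitted together and shared 1 estimate of the spread. Gate markers, and Krt5 or Lrig1 where they defined the groups, were not tested. Thinning drew UMIs without replacement to 5000 (2000 as an alternative) per cell, and shallower cells were left out. Krt5 groups were set by rank of Krt5 UMIs in thinned cells. DESeq2 1.42.0, total-count scaling, no filter, other gates and limits, and left-out libraries were alternatives, and those with both the block and thinning were chosen after seeing the data. Scripts were tested on simulated data. The members and lists were chosen with earlier results of these data known. The genes named are the 5 keratins, the 3 genes most similar to each, and per list up to 2 called genes at either end of the secretory against basal contrast. Krt6a and Krt17 fall outside this rule, having been picked once their values were known.

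A replicate number marks 1 pool of mice, so the groups of a library are paired. Deviations of its groups from their means correlated by 0.0905 to 0.842 between classes, by 0.316 to 0.686 between Krt5 groups and by 0.346 to 0.951 between Lrig1 groups. In summed cells, fewer expressing cells and less RNA per cell cannot be told apart.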

Additional observations from a re-analysis of the deposited data

Results flagged for a closer look

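The effect of carrying a Lrig1 UMI differed between classes for Krt23 and Krt8, in a test of the difference itself with the library as a block (edgeR's quasi-likelihood test, adjusted over 15671 genes). For Krt23, the log2 difference was -1.58 for squamous minus basal cells (adjusted p = 0.00206) and -1.13 for squamous minus secretory cells (adjusted p = 0.0151). Krt23 was lower in Lrig1+ than in Lrig1- squamous cells in 3 of 3 libraries, and higher in Lrig1+ basal cells in 3 of 3. For Krt8, the difference was 0.51 for squamous minus secretory cells (adjusted p = 0.0325), with Krt8 higher in Lrig1+ squamous cells in 3 of 3 libraries and in Lrig1+ secretory cells in 2 of 3. Without the block the adjusted p-values were 0.241, 0.358 and 0.586. Lrig1+ cells were deeper, with a median of 26938, 28012 and 25499 UMIs against 20090, 25026.5 and 22020 in squamous, 15358, 18374 and 15703 against 10875, 13364 and 9981.5 in basal and 17785, 21156.5 and 14771 against 11844, 15789 and 6419.5 in secretory cells. With each cell thinned to 5000 UMIs before the Lrig1 call and the library as a block, an alternative chosen after seeing the data, none of the 3 was past the threshold. The Krt23 differences were -0.88 for squamous minus basal cells (adjusted p = 0.847) and -0.61 for squamous minus secretory cells (adjusted p = 0.714), while Krt8 gave 0.49 (adjusted p = 0.417). Krt23 was then lower in Lrig1+ squamous cells in 3 of 3 libraries but higher in Lrig1+ basal cells in 2 of 3, and Krt8 was higher in Lrig1+ squamous cells in 3 of 3 and in Lrig1+ secretory cells in 0 of 3, where it went from 135, 136 and 152 CPM to 125, 116 and 145 CPM. Thinning also moved cells that had carried a Lrig1 UMI to the Lrig1- groups, and the part of this was not tested. Squamous gate markers summed to 6923, 3877 and 6432.5 CPM in Lrig1- and 4106, 3466 and 4336 CPM in Lrig1+ squamous cells, and their part in the Krt23 difference was not tested.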

How the results depend on the processing

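Of 132 counts recomputed under alternatives, 118 stayed within 1.5 times their value. Krt18 in squamous against basal cells turned to -0.035 with markers from 1 UMI. Krt23 between Krt5 groups turned to -0.035 with the replicate block, -0.55 with markers from 1 UMI and -0.15 at 2000 UMIs, and was -0.41 to 0.41 with 1 library left out. Between Lrig1 groups of squamous cells Krt7 turned to 0.061 with markers from 3 UMIs and was -0.25 to 0.16 with 1 library left out. In secretory cells Krt7 turned to 0.0052 and Krt8 to 0.040 with total counts, Krt8 to 0.0064 without doublet removal and -0.057 to 0.068 with 1 library left out, and Krt19 to -0.0027 with markers from 3 UMIs and -0.12 at 5000 UMIs, with the block (-0.12) or without. None of these was called, and the cause was not tested.

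Leaving out 1 library gave 1 to 4 keratins called in secretory cells, 0 to 2 between Krt5 groups, 3 to 4 in squamous, 4 to 5 in gland and neuroendocrine and 4 in ciliated cells. A lone gland or neuroendocrine library was assumed to vary like the others. With markers from 1 UMI, 3 were called in neuroendocrine cells. Between Lrig1 groups the replicate block called 5 in basal and 3 in squamous cells, and with thinning to 5000 UMIs 3 and 4. In squamous cells DESeq2 called 2, against 1.39% of all genes, no filter called 2 and markers from 3 UMIs 1. Over all genes, the alternatives with all 3 libraries called 1 to 815 there. The class with the highest mean held for 3 of 5 genes without cells of the basal gate and for 3 when thinned before gating, squamous cells then leading for Krt19 and Krt23, for 4 to 5 with 1 library left out, and for 0 with the limits on genes and UMIs exchanged, which left no gland or neuroendocrine sum. The block changed no call against basal cells other than those of Krt7 and no call between Krt5 groups. Between other classes it added calls of Krt7 between secretory and squamous cells and of Krt23 between gland and squamous cells. It also added those of Krt18, lower in neuroendocrine than in gland cells, and of Krt7 and Krt19 between ciliated and squamous cells. Over all genes, the block called 3709 between Krt5 groups (573 without), 6142 in squamous (2907), 3550 in secretory (1158) and 908 between Lrig1 groups of secretory cells (0). Leaving out 1 library gave 810 to 3276 in squamous (810 without library 1 and 1296 without library 2), 222 to 1205 in secretory (222 and 435), 1130 (without library 3) to 2094 in gland (2496) and 3922 to 6777 in neuroendocrine cells (6231), with 3922 and 3988 without libraries 1 and 2. Settings other than these called 985 to 4207, 415 to 3834, 409 to 5582 and 3051 to 7037. The Lrig1 differences between classes lost their calls after thinning to equal depth, which also moved cells from the Lrig1+ to the Lrig1- groups. With total counts the calls split into 811 higher and 4771 lower in gland (TMM 1307 and 1189), 832 and 2041 in squamous (1359 and 1548) and 3848 and 2293 in neuroendocrine cells (3072 and 3159). The median log2 fold change of all genes then went from -0.24 to -0.88 in gland, from -0.03 to -0.24 in ciliated and from -0.13 to 0.10 in neuroendocrine cells. Gland and neuroendocrine sums of 15 to 44 cells limit what their values show.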

Other observations

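Thyroid follicular cells, gated by thyroid genes and present as 32, 20 and 9 cells, the last too few for a sum, had Krt18 at 319 and 365 CPM, Krt8 at 216 and 274 CPM, Krt7 at 215 and 223 CPM and Krt19 at 101 and 208 CPM. Krt23 held 0 UMIs in library 1 and was at 2.21 CPM in library 2. Their ratio of Krt8 to Krt18 UMIs was 0.679 and 0.752.

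Within squamous cells thinned to 5000 UMIs, Krt19 ran with Krt8 (Spearman's rho across cells of 0.552, 0.466 and 0.545 in libraries 1, 2 and 3), with Krt7 (0.467, 0.477 and 0.487) and with Krt18 (0.453, 0.484 and 0.500), and against Krt5 (-0.497, -0.527 and -0.548). In basal cells Krt7 and Krt18 gave 0.0195, 0.0195 and 0.0529. These are values across cells (234 to 843 squamous cells a library), which are not independent replicates.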
